A study of Mus musculus with 11 samples.

Results

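The complement genes C3, C4b, Cfb, Cfi, C1s1, C1ra, Cd55 and Cd59a were followed through an injury diet and the recovery from it in mouse liver cells labelled cholangiocytes, the lining cells of bile ducts. They were chosen by gene symbol, 8 of the 43346 genes in the table. All 8 were found, and all 8 passed the filter on low values that left 15264 genes for testing. Wildtype C57BL/6 male mice aged 14 to 16 weeks gave 11 libraries, 1 mouse each. The 4 Control mice ate chow, the 4 DDC mice ate for 10 days a diet with DDC, a compound that blocks heme synthesis and injures the bile ducts, and the 3 R15 mice ate the DDC diet for 10 days and then chow for 15 days. Livers were dissociated, and cells carrying EpCAM, a surface protein of bile duct epithelium, were caught on magnetic beads and passed over a second column. Their polyadenylated RNA was sequenced from stranded libraries, and levels are given as FPKM, fragment counts scaled for transcript length and for library depth.

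Complement is a cascade of plasma proteins, most of them made in the liver. The C1s protease of the first complex, activated by its partner C1r, cleaves C4 and C2. Factor B carries the amplifying alternative pathway, and all routes meet at the cleavage of C3. Factor I cuts C3b and C4b once a cofactor holds them, Cd55 takes apart the enzymes that cleave C3, and Cd59 blocks the final pore on the cell that carries it.

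Libraries held between 49339240 and 72929107 reads, and the members' own reads ran from 210 for C1s1 in a Control library to 535910 for C3 in a DDC library. All 10 cholangiocyte markers were tested and their summed level was 9469 to 12186 FPKM across Control, 11787 to 13271 across DDC and 10062 to 11072 across R15, so the genes that define the labelled cell type were high in every library. Markers of other cells were present too. The 14 hepatocyte markers summed to 3186 to 3885, 1206 to 1836 and 1984 to 2778 FPKM in the Control libraries, DDC and R15, and the 10 macrophage markers to 104 to 125, 924 to 1567 and 120 to 511. Those of 8 endothelial genes came to 74.2 to 320, 11.8 to 34.8 and 49.5 to 182. Neutrophil sums were 1.36 to 3.95, 41.7 to 70.2 and 2.66 to 9.98 FPKM, and those of B and plasma cells 40.5 to 88.8, 11.4 to 22.9 and 37.7 to 171. Mesothelial sums were 35.2 to 47.4, 55.9 to 86.5 and 39.8 to 44.6 FPKM. The higher mesothelial sum in DDC rested on Msln, at 6.09 to 10.7 FPKM in Control and 44.8 to 76.7 in DDC. The other mesothelial markers tested were lower in DDC. Upk3b went from 2.38 to 3.6 FPKM in Control to 0.354 to 0.427, and Gpm6a from 26.3 to 35.6 to 9.21 to 12.7. Sums for stellate cells and fibroblasts stayed at or below 7.05 FPKM and those for T and NK cells at or below 10.1, while the 8 pancreatic acinar genes summed to 9.71 to 6542, 6.63 to 797 and 6.08 to 1054. No marker was at 0 in all libraries. Fewer cells of a type and less RNA per cell cannot be told apart in such bulk libraries, and neither can more of them.

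The first comparison, DDC against Control, asks how the genes stood after 10 days of the diet, and the other comparisons ask how they stood after the 15 days of recovery. In DDC, 7 of the 8 passed the threshold, where 65.4% of all genes tested did. C3, Cfb, Cfi and C1s1 rose, beside 33.5% of all genes, and C1ra, Cd55 and Cd59a fell, beside 31.9%. C4b did not pass. Since most genes of the table passed, the count says little about these 8 in particular. In R15 against Control, 4 of 8 passed, all higher (C3, Cfb, Cfi and C1s1), where 9.58% of all genes passed and 6.87% were higher. The 8 were chosen with earlier results of these data known, so this count beside all genes is only a description. By limma 0 of the 8 were lower, also 0 by limma voom on the reads and 0 with unadjusted p under 0.05, beside 2.72% of all genes. The 4 became 2, C3 and C1s1, without R15 1 or without Control 3 and Control 4 together. In R15 against DDC, 4 of 8 passed, beside 62.2% of all genes: C1s1, C1ra and Cd59a were higher (background 33.4%) and Cfb was lower (28.8%). Tests were limma on log2(FPKM + 1) with Benjamini-Hochberg adjustment over all 15264 genes and a threshold of 0.05. Median log2 differences over the 8 were -0.06, 0.31 and 0.54 in the order just given, beside 0.00, 0.05 and 0.04 over all genes tested. Comparisons with Control share the same 4 Control libraries.

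**Figure D1:**
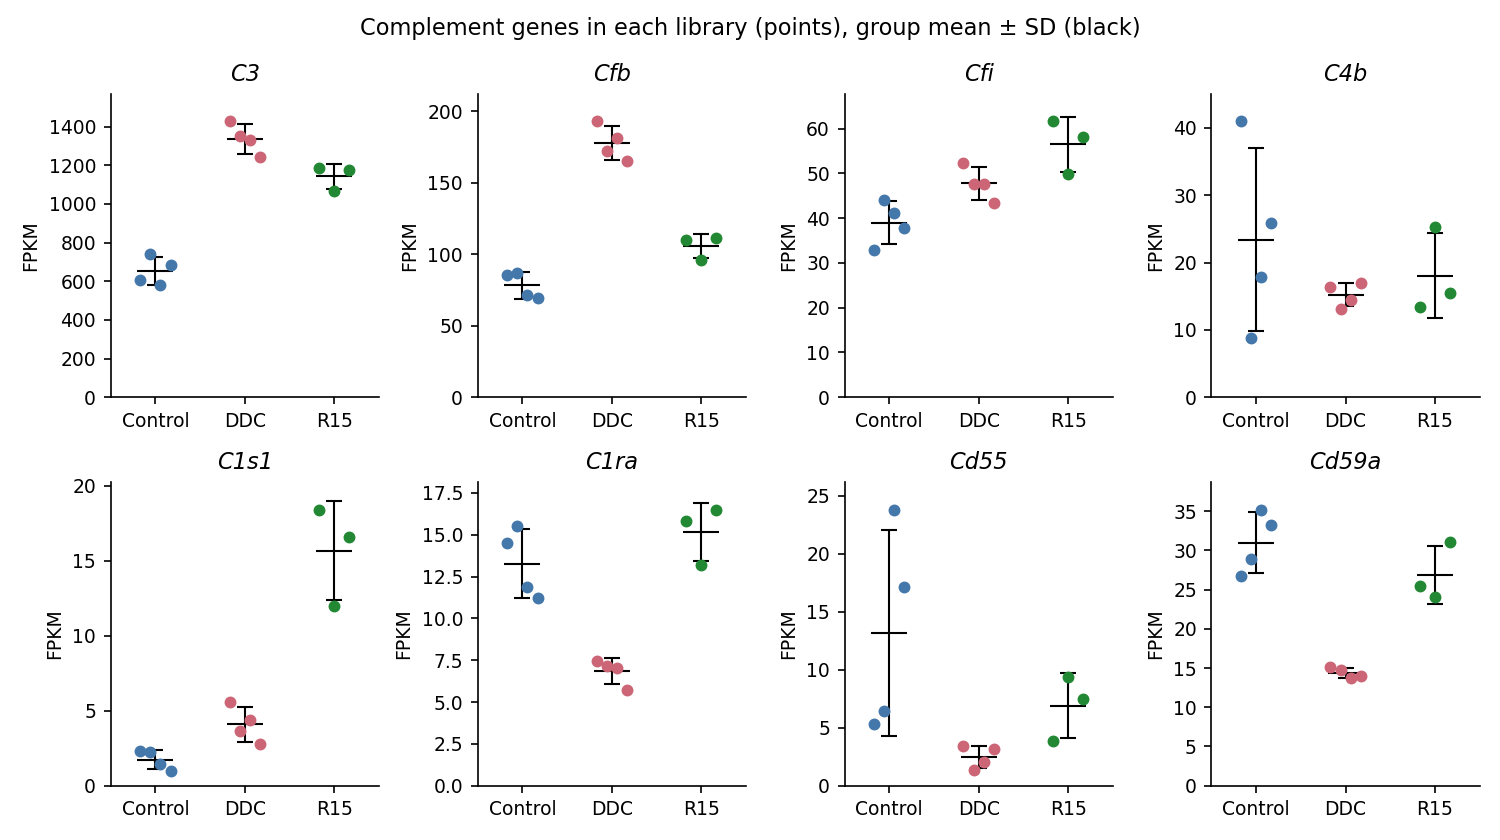
FPKM of the 8 complement genes in every library (points), with the group mean and SD in black, for Control (4 libraries), DDC (4) and R15 (3); each panel has its own linear axis from 0. C3 and Cfb are lowest in all Control libraries, C1s1 is highest in all R15 libraries, and C1ra and Cd59a are lowest in all DDC libraries.

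The background of called genes in R15 against Control moved with the scaling, since 1048 genes were higher and 415 lower as deposited but 622 and 804 after median-of-ratios scaling and 594 and 468 after quantile normalization. In R15 against DDC the split was 5099 higher and 4397 lower, and 6172 and 3305 with all libraries brought to one FPKM total, which shifted the median of all genes by 0.10. No member changed direction under any of these 3 scalings.

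**Figure D2:**
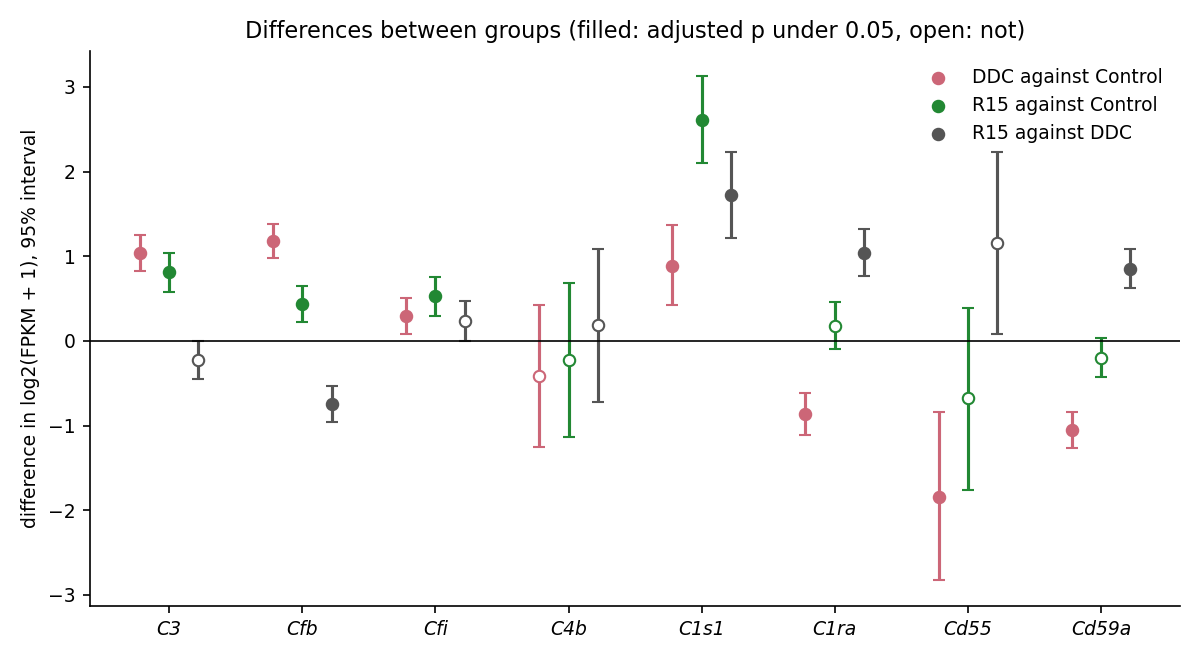
Differences in log2(FPKM + 1) with 95% intervals for the 8 genes in the 3 comparisons, with filled points for an adjusted p under 0.05. C1s1 has the largest difference in R15 against Control, at 2.61, and Cd55 and C4b have the widest intervals.

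C3, the protein on which the pathways meet, was the most abundant member in every group. It stood at 605, 742, 579 and 686 FPKM in the Control libraries, 1429, 1351, 1330 and 1242 in DDC and 1184, 1069 and 1177 in R15. The 3 groups did not overlap, with DDC highest and Control lowest. Its mean was 653 ± 75.1 FPKM (SD, n = 4) in Control, which put it at rank 29 among the genes tested, and 1338 ± 76.7 (SD, n = 4) for DDC and 1143 ± 64.3 (SD, n = 3) in R15, at rank 13 in both. Between 0.298% and 0.382% of all reads came from C3 in Control, 0.639% to 0.735% in DDC and 0.55% to 0.609% in R15. C3 rose 2.05-fold in DDC, a log2 difference of 1.04 ± 0.09 (SE; 95% interval 0.83 to 1.25; limma adjusted p = 7.6e-06). In R15 it was still 1.75-fold above Control (0.81 ± 0.10, interval 0.58 to 1.04; limma adjusted p = 0.0017). The step from DDC to R15, -0.23 ± 0.10 (interval -0.45 to 0.00), missed the threshold (limma adjusted p = 0.078). The step moved with the scaling: it passed after median-of-ratios scaling (-0.28) and with array weights (-0.21), and shrank to -0.11 with one FPKM total and -0.03 after quantile normalization, where it did not pass. C3 lies on the minus strand of chromosome 17, from 57203970 to 57228136 (mm10; ENSMUSG00000024164), and hosts the microRNA gene Mir6978.

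Cfb, the protease of the alternative pathway, had the same order of groups at a lower level. Control libraries held 85.7, 86.9, 71.3 and 69.2 FPKM, DDC libraries 193, 172, 181 and 165, and R15 libraries 110, 96.2 and 111. No value was shared between groups, and R15 lay nearer to Control than to DDC. Means were 78.3 ± 9.34 (SD, n = 4), 178 ± 12.0 (SD, n = 4) and 106 ± 8.39 FPKM (SD, n = 3). Cfb rose 2.27-fold in DDC (log2 1.18 ± 0.09, interval 0.98 to 1.38; limma adjusted p = 2.2e-06) and fell again by R15, by 0.74 ± 0.10 on the log2 scale (limma adjusted p = 0.00011). In R15 it was 1.35-fold above Control (0.44 ± 0.10, interval 0.22 to 0.65; limma adjusted p = 0.022). That last call was lost without Control 3 (0.39), R15 1 (0.41) or R15 3 (0.40), after median-of-ratios scaling (0.37), and with only R15 and Control in the fit (0.44). Cfb (ENSMUSG00000090231; chromosome 17, 34856374 to 34862518, minus strand, mm10) overlaps Gm20547 on the same strand, a gene model from 34856412 to 34882042 that holds 73.0% of the 50-base words of Cfb, so the split of reads between them is uncertain. Gm20547 was listed at 72.3 to 91.0 FPKM across Control, 135 to 157 across DDC and 93.8 to 108 across R15. The ratio of Cfb to Gm20547 was 0.942 to 0.977 in Control, 1.22 to 1.23 in DDC and 1.02 to 1.03 in R15, so the 2 gene models did not change by equal factors.

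Cfi, the soluble protease that ends the action of C3b and C4b, had the smallest difference from Control among the members that passed in DDC. It stood at 33.0, 44.1, 41.1 and 37.9 FPKM in the Control libraries, 52.4, 47.7, 47.6 and 43.4 in DDC and 61.7, 49.8 and 58.1 in R15. DDC overlapped both other groups, while every R15 library was above every Control library. Means were 39.0 ± 4.74 (SD, n = 4), 47.8 ± 3.70 (SD, n = 4) and 56.5 ± 6.06 FPKM (SD, n = 3). Cfi rose by 0.29 ± 0.10 on the log2 scale in DDC (interval 0.08 to 0.51; limma adjusted p = 0.022), and was 1.45-fold above Control in R15 (0.53 ± 0.10, interval 0.29 to 0.76; limma adjusted p = 0.015). The difference between R15 and DDC, 0.24 ± 0.10 (interval 0.00 to 0.47), missed the threshold (limma adjusted p = 0.072). These calls turned on single libraries. The call in DDC against Control was lost without Control 1 (0.22) or DDC 1 (0.25) and with one FPKM total (0.21), and that in R15 against Control without R15 1 (0.46). The difference of R15 from DDC passed without Control 1 (0.24) or R15 2 (0.32). Cfi lies on the plus strand of chromosome 3, from 129836739 to 129875328 (mm10; ENSMUSG00000058952).

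Set against this inhibitor, C3 was 14.1 to 18.3 times the FPKM of Cfi in Control, 27.3 to 28.6 times in DDC and 19.2 to 21.5 times in R15. Cfb was 1.74 to 2.6 times the FPKM of Cfi in Control, 3.61 to 3.81 times in DDC and 1.79 to 1.93 times in R15. Both ratios were highest in the 4 DDC libraries, with no overlap with another group, and for Cfb the R15 ratios lay inside the Control range. These ratios are a description and were not tested.

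The promoters of 3 genes are shown. C3 and C1s1 stood above Control in R15, as did Cfb and Cfi, for which no window was matched. C1ra, next to C1s1 on chromosome 6, did not pass there, and neither did C4b, Cd55 and Cd59a.
C3, chr17:57228137-57228386, minus strand: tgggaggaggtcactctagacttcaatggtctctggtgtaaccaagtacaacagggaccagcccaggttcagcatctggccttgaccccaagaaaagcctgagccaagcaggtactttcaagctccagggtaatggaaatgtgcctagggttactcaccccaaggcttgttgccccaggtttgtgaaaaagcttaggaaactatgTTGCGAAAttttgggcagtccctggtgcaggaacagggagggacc
C1s1, chr6:124542360-124542609, minus strand: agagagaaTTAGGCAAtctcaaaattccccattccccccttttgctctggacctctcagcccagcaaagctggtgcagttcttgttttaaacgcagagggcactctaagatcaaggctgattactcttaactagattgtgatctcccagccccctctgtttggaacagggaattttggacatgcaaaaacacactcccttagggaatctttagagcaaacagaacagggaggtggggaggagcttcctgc
C1ra, chr6:124512371-124512620, plus strand: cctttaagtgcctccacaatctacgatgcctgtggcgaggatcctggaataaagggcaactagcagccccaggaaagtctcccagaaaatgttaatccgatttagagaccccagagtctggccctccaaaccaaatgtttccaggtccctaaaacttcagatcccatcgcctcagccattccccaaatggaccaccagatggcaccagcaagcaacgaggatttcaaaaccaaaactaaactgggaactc
Each run is the 250 bases before a start site, read 5′ to 3′ on the gene's strand, from RefSeq promoters on GRCm38.p6, the assembly of mm10. Capitals mark matches to TTGCNNAA, a C/EBP-type motif. RefSeq windows were matched for 5 of the 8 genes: C3, C1s1, C1ra, Cd55 and Cd59a, and not for C4b, Cfb and Cfi. On both strands, 4 motifs were searched: CCAAT, which NF-Y binds, TTCNNNGAA for STAT factors, kappaB, and TTGCNNAA. They matched 33.8%, 7.02%, 5.0% and 9.56% of all 32851 promoter windows of the same length. The C3 window held TTGCGAAA on the gene's strand, 45 to 38 bases before the start, and the C1s1 window held TTAGGCAA, a match on the other strand, 242 to 235 bases before the start. The window of the second C1s1 start and those of C1ra, Cd55 and Cd59a held no match to any of the 4, and none of the windows held CCAAT. With 1 match in a window, no matches overlapped. A match is a string of letters and no evidence of binding, and the missing ones say only that these letters are not in these windows.

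C1s1 and C1ra encode partner proteases that sit together in the first complex, and their genes lie side by side on chromosome 6, with their 3′ ends facing each other. Their RNA moved in opposite directions in DDC, and C1s1 in R15 stood far above its Control level. C1s1 stood at 2.32, 2.22, 1.43 and 0.999 FPKM in the Control libraries, 5.55, 3.66, 4.37 and 2.76 in DDC and 18.4, 12.0 and 16.6 in R15. The 3 groups did not overlap, and every R15 library was far above the highest DDC library. Means were 1.74 ± 0.635 (SD, n = 4), 4.09 ± 1.18 (SD, n = 4) and 15.7 ± 3.30 FPKM (SD, n = 3). C1s1 rose 2.35-fold in DDC (log2 0.89 ± 0.21, interval 0.42 to 1.37; limma adjusted p = 0.0039). In R15 it was 8.98-fold above Control (2.61 ± 0.23, interval 2.10 to 3.13; limma adjusted p = 0.00027) and 3.83-fold above DDC (1.72 ± 0.23, interval 1.21 to 2.23; limma adjusted p = 0.00014). Of the 8 members it had the largest difference between R15 and Control. Without the 5 libraries richest in pancreatic transcripts, which leaves 1 Control library, the R15 calls of C1s1 (2.99) and C3 (0.71) against Control were lost. C1s1 (ENSMUSG00000038521) runs from 124530345 to 124542359 on the minus strand.

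C1ra stood at 14.5, 15.5, 11.9 and 11.2 FPKM in the Control libraries, 7.46, 7.15, 7.03 and 5.73 in DDC and 15.8, 13.2 and 16.5 in R15. DDC lay below all other libraries, and R15 overlapped Control. Means were 13.3 ± 2.05 (SD, n = 4), 6.84 ± 0.766 (SD, n = 4) and 15.2 ± 1.71 FPKM (SD, n = 3). C1ra fell to 0.52 of its Control level in DDC (log2 -0.86 ± 0.11, interval -1.11 to -0.61; limma adjusted p = 8.9e-05) and rose 2.22-fold from DDC to R15 (1.04 ± 0.12, interval 0.77 to 1.32; limma adjusted p = 6.3e-05). R15 against Control gave 0.18 ± 0.12 (interval -0.09 to 0.46; limma adjusted p = 0.34). C1ra (ENSMUSG00000055172) runs from 124512632 to 124523440 on the plus strand.

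Per length, C1s1 was at 0.16, 0.143, 0.12 and 0.089 times the level of C1ra in the Control libraries. The ratio was 0.745, 0.513, 0.621 and 0.483 in DDC and 1.16, 0.906 and 1.01 in R15. It separated the 3 groups without overlap, and the levels of the partners were close to equal only in R15. This ratio is a description with no test. Of the 14 hepatocyte markers tested, 4 were higher in R15 against Control (Serpina1a, Fgb, Fga and Tat), beside 6.87% of all genes. Another 2 were lower (Alb and Ttr), beside 2.72%. Serpina1a, which encodes a secreted protease inhibitor, stood at 6.78, 9.40, 4.67 and 3.28 FPKM in the Control libraries, 11.7, 6.69, 9.01 and 6.86 in DDC and 24.2, 20.0 and 28.6 in R15, the same order of groups as C1s1. Alb, which encodes albumin, stood at 2385 to 3117 FPKM across Control, 836 to 1272 across DDC and 1432 to 1990 across R15, highest in Control, where C1s1 was lowest. The part of hepatocyte RNA in the C1s1 result was not tested.

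**Figure D3:**
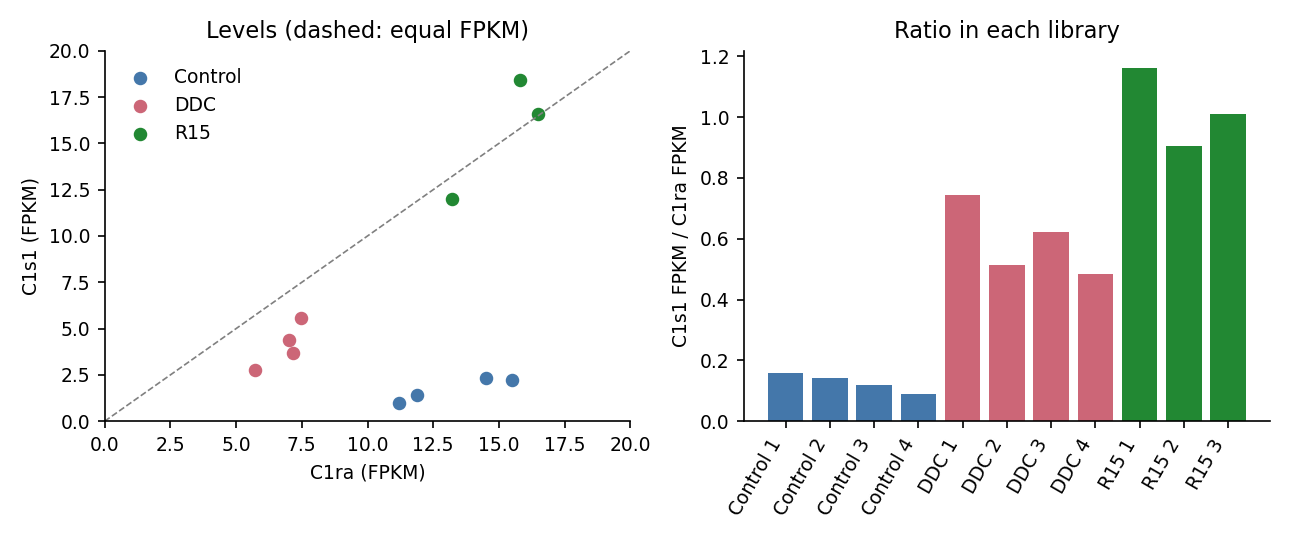
Left, C1s1 against C1ra in FPKM, 1 point per library, with a dashed line at equal FPKM; right, the ratio of C1s1 to C1ra in each library as bars from 0. Control libraries lie at ratios of 0.089 to 0.16, DDC libraries at 0.483 to 0.745 and R15 libraries at 0.906 to 1.16.

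C4b, the mouse C4 whose cleavage product binds to targets and carries C2, was the member with no call in any comparison. It stood at 41.0, 8.82, 17.9 and 25.9 FPKM in the Control libraries, 16.3, 13.1, 14.5 and 16.9 in DDC and 13.4, 25.2 and 15.4 in R15. Control libraries spread from below to above all others, and all groups overlapped. Means were 23.4 ± 13.6 (SD, n = 4), 15.2 ± 1.74 (SD, n = 4) and 18.0 ± 6.29 FPKM (SD, n = 3). Log2 differences were -0.41 ± 0.38 for DDC against Control (interval -1.25 to 0.43; limma adjusted p = 0.36), -0.22 ± 0.41 for R15 against Control (interval -1.13 to 0.69; limma adjusted p = 0.74) and 0.19 ± 0.41 for R15 against DDC (interval -0.72 to 1.09; limma adjusted p = 0.71). These intervals are wide and include a fall of -1.25 in DDC. Single Control libraries moved these values. The DDC difference was -0.78 and passed without Control 2, the lowest library, but was -0.08 without Control 1, the highest, and -0.01 without Control 1 and Control 3. Without Control 1 the R15 difference from Control was 0.10. C4b (ENSMUSG00000073418) lies on chromosome 17 from 34728380 to 34743882, minus strand, mm10.

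The surface inhibitors Cd59a and Cd55 were both lower in DDC. Cd59a, which stops the membrane pore, stood at 26.7, 28.9, 35.2 and 33.2 FPKM in the Control libraries, 15.1, 14.7, 13.7 and 14.0 in DDC and 25.5, 24.1 and 31.1 in R15. DDC lay below all others with little spread, and R15 overlapped Control. Means were 31.0 ± 3.88 (SD, n = 4), 14.4 ± 0.626 (SD, n = 4) and 26.9 ± 3.70 FPKM (SD, n = 3). Cd59a fell to 0.46 of its Control level in DDC (log2 -1.05 ± 0.10, interval -1.26 to -0.84; limma adjusted p = 7.7e-06) and rose 1.87-fold from DDC to R15 (0.85 ± 0.10, interval 0.62 to 1.08; limma adjusted p = 7.7e-05). R15 against Control gave -0.20 ± 0.10 (interval -0.43 to 0.03; limma adjusted p = 0.23). Cd59a (ENSMUSG00000032679) lies on the plus strand of chromosome 2 from 104095801 to 104115354, mm10.

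Cd55, which dismantles the enzymes that cleave C3, stood at 5.31, 6.43, 23.8 and 17.1 FPKM in the Control libraries, 3.39, 1.33, 2.05 and 3.12 in DDC and 3.83, 9.36 and 7.44 in R15. Control 3 and Control 4 were far above the other Control libraries, and DDC lay below every library of both other groups. Means were 13.2 ± 8.88 (SD, n = 4), 2.47 ± 0.953 (SD, n = 4) and 6.88 ± 2.81 FPKM (SD, n = 3). Cd55 fell to 0.19 of its Control mean in DDC, a log2 difference of -1.84 ± 0.45 (interval -2.83 to -0.84; limma adjusted p = 0.0044). R15 against Control gave -0.68 ± 0.48 (interval -1.76 to 0.39; limma adjusted p = 0.37). R15 against DDC gave 1.16 ± 0.48 (interval 0.08 to 2.23; limma adjusted p = 0.059). This last difference missed the threshold, and passed under 10 of 29 alternatives, among them those without Control 1 (1.16), Control 3 (1.16) or R15 1 (1.47). Cd55 (ENSMUSG00000026399) lies on the minus strand of chromosome 1 from 130439027 to 130462744, mm10.

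Endothelial markers moved with Cd55 from library to library. By limma all 8 endothelial markers fell in DDC against Control (31.9% of all genes), and 7 were higher in R15 against DDC (33.4%). None differed in R15 against Control (0 by limma, 0 by limma voom and 0 with unadjusted p under 0.05), where 9.58% of all genes were called by limma. Kdr, a VEGF receptor gene, stood at 8.37, 12.8, 44.4 and 31.9 FPKM in the Control libraries, 3.97, 0.875, 1.87 and 2.96 in DDC and 5.66, 17.8 and 14.6 in R15. Stab2, a scavenger receptor gene of liver sinusoids, stood at 9.65, 13.0, 45.1 and 37.9 FPKM in the Control libraries, 5.32, 1.31, 2.43 and 4.24 in DDC and 6.88, 17.2 and 14.0 in R15. For both markers, as for Cd55, Control 3 was highest and Control 4 second, DDC 2 was lowest, and R15 2 was highest of its group. Cd59a also had Control 3 highest (35.2 FPKM) and Control 4 second (33.2). Its lowest library was DDC 3 (13.7), and R15 2 was lowest of its group (24.1). Without Control 3 and Control 4, a choice made after seeing the data, Cd55 was still lower in DDC at -1.02 (limma adjusted p = 0.03, range over all alternatives 0.001 to 0.03), while its R15 difference from Control turned to 0.13. Cd59a was at -0.90 in DDC without them. In Control 1 and Control 2, which that fit keeps, Kdr and Stab2 were above every DDC library as well. The fit therefore does not separate Cd55 from these markers. The part of endothelial RNA in the Cd55 result was not tested.

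**Figure D4:**
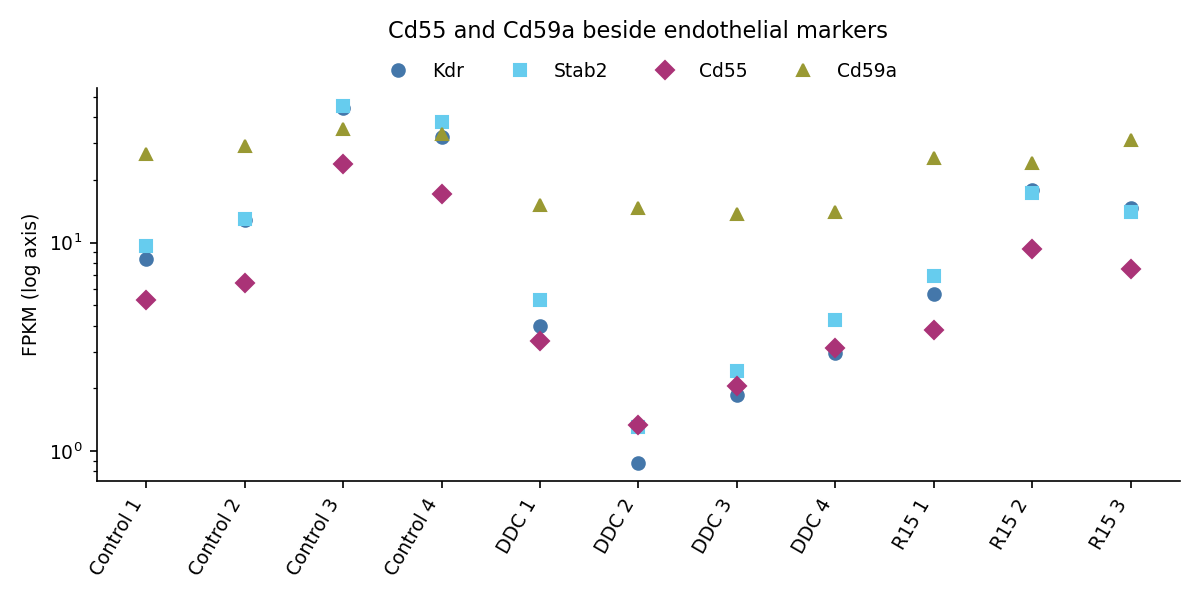
FPKM on a log axis of Cd55, Cd59a and the endothelial markers Kdr and Stab2 in each of the 11 libraries. Cd55 has the library order of Kdr and Stab2 at its top, with Control 3 at 23.8 FPKM and Control 4 at 17.1. Cd59a is also highest in Control 3 and then Control 4, but stays between 26.7 and 35.2 in Control.

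Levels per length ordered the genes in a similar way in each group at the top. In Control the order of means was C3, Cfb, Cfi, Cd59a, C4b, C1ra, Cd55 and C1s1, where Cfi to Cd55 were neighbours with overlapping ranges and the others stood apart. In DDC it was C3, Cfb, Cfi, C4b, Cd59a, C1ra, C1s1 and Cd55, with overlap only between C4b and Cd59a and between C1s1 and Cd55. In R15 it was C3, Cfb, Cfi, Cd59a, C4b, C1s1, C1ra and Cd55, with overlap between neighbours from Cd59a to C1ra. Among the genes tested C1s1 went from rank 12964 in Control to 10647 in DDC and 4731 in R15, and C1ra from 5328 to 8526 and back to 4869.

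The genes most like each member were those with the smallest root mean square difference between centred log2(FPKM + 1) profiles over the 11 libraries, searched among 9353 genes. For C3 they were Mir6978 (0.07), St6gal1, a sialyltransferase gene (0.116), and Ttyh2 (0.123). Mir6978 lies inside C3 on the same strand and may share its reads, so it is not an independent match. Cfb was nearest to Hap1 (0.092), Tes (0.101) and Col16a1 (0.107), and Cfi to Antxr2 (0.108), Ttc27 (0.109) and Klhl25 (0.114). The profile of C1ra was nearest to Cat, which encodes catalase (0.105), Chdh (0.106) and Foxa2 (0.114), and that of Cd59a to Lifr (0.112), Cldn8 (0.116) and Copz2 (0.117). Cd55 was nearest to Esam, an endothelial adhesion gene (0.152), Gimap4 (0.172) and Fam167b (0.186). C1s1 was nearest to Serpina1a (0.333), Cpb2 (0.466) and Igfals (0.496), and C4b to Cyp2s1 (0.294), Aoc1 (0.301) and Gal3st2 (0.333). These distances compare with each gene's own spread about its mean, from 0.245 for Cfi to 1.075 for C1s1.

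Reads from near copies could be split in the counting, so the copies were checked. C1rb shared 48.0% of the 50-base words of C1ra and was listed at 0.146 to 0.554 FPKM, C4a shared 34.6% of those of C4b at 0.421 to 0.971 FPKM, and C1s2 shared 21.8% of those of C1s1 at 0.00559 to 0.244 FPKM. Cd55b shared 8.0% of the words of Cd55 at 0.0327 to 0.50 FPKM. Cd59b shared 3.87% of those of Cd59a. All copies were low beside the members, and the ratio of C1ra to C1rb stayed between 29.7 and 57.2. Antisense genes over C1s1 and Cd55 reached at most 0.0805 and 0.0223 FPKM.

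Of 52 other complement genes listed, 51 were in the table and 35 passed the filter. In DDC against Control 13 rose and 11 fell, shares near the 33.5% higher and 31.9% lower of all genes tested (median log2 difference 0.15, beside 0.00). In R15 against Control 2 were higher, Hc and C9, and 0 lower by limma, also 0 by limma voom and 0 with unadjusted p under 0.05, beside 6.87% higher and 2.72% lower of all genes (median 0.18, beside 0.05). In R15 against DDC 11 were higher and 11 lower, beside 33.4% and 28.8% of all genes (median -0.04, beside 0.04). The counts by role that follow are read against the same shares.

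Of the genes that start the classical and lectin pathways 10 were tested, and 4 rose and 3 fell in DDC, again near the shares of all genes. The 3 chains of C1q, the recognition part of the first complex, rose most. C1qb went from 13.9 to 20.1 FPKM across Control libraries to 249 to 473 in DDC, and stood at 15.6, 120 and 22.4 in R15, so R15 2 was the 1 recovery library far above Control. Its log2 difference was 4.15 ± 0.52 in DDC against Control (limma adjusted p = 6e-05) and -3.14 ± 0.56 in R15 against DDC (limma adjusted p = 0.00078). C1qa and C1qc differed by 3.80 ± 0.52 and 3.68 ± 0.52 in DDC against Control. Of the first complex, then, the C1q chains and C1s1 rose in DDC and C1ra fell. Cfp, which encodes properdin, the stabiliser of the alternative C3 convertase, stood at 10.2 ± 0.695 FPKM among Control mice (SD, n = 4), 41.3 ± 9.40 for DDC (SD, n = 4), with 16.3 ± 11.1 for R15 (SD, n = 3). It rose with DDC (1.90 ± 0.30; limma adjusted p = 0.00031) and fell by 1.44 from DDC to R15. Without the 5 libraries richest in pancreatic transcripts the R15 differences from DDC of Cfp (-1.30), C1qa (-2.64) and C1qc (-2.60) did not pass.

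Of 8 receptor genes tested, 6 rose in DDC (33.5% of all genes) and 0 fell, and 5 were lower in R15 against DDC (28.8% of all genes). C5ar2 and Cd93, named because they are the receptors that did not pass in DDC, differed by -0.23 ± 0.29 and 0.64 ± 0.40. C3ar1, the receptor for the C3a fragment, rose from 0.318 ± 0.0619 FPKM among Control mice (SD, n = 4) to 11.1 ± 2.90 for DDC (SD, n = 4), and was at 1.28 ± 1.18 for R15 (SD, n = 3). Its log2 difference in DDC was 3.18 ± 0.25 (limma adjusted p = 3.3e-06). C5ar1, the receptor for C5a, differed by 2.72 ± 0.24, and Itgax, a chain of complement receptor 4, by 2.65 ± 0.31. Macrophage markers moved the same way, with 8 of 10 higher in DDC (33.5% of all genes). Their sum in R15 was highest, at 511 FPKM, in the library with the most C1qb. Of 3 neutrophil markers tested, 3 were higher in DDC, beside the same 33.5% of all genes. The part of macrophage and neutrophil RNA in these rises was not tested.

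**Figure D5:**
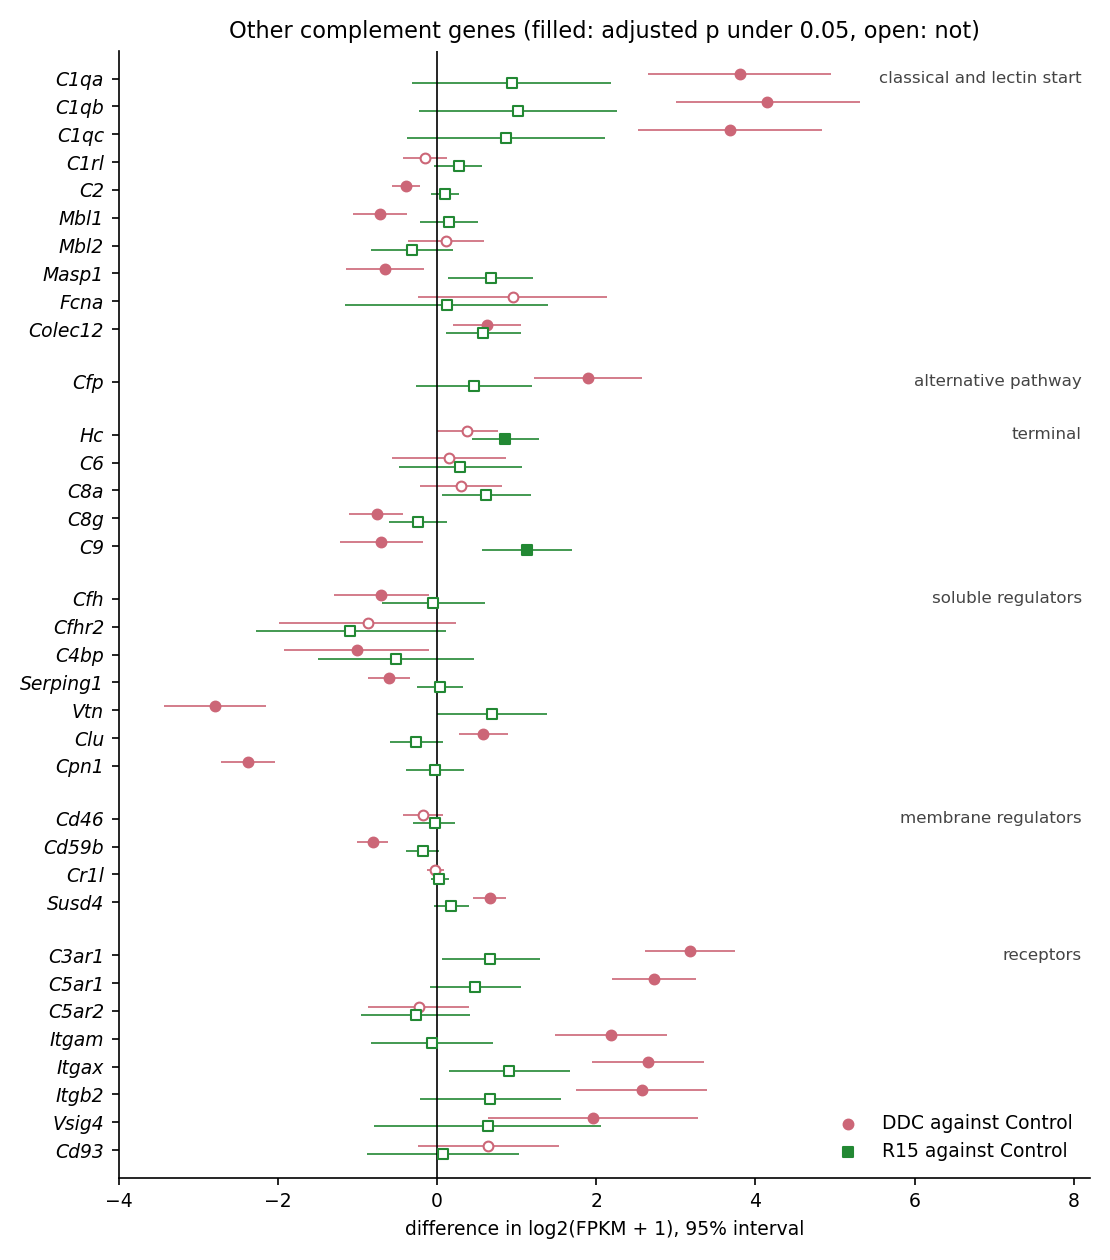
Differences in log2(FPKM + 1) with 95% intervals of the 35 other complement genes tested, grouped by role, for DDC against Control (circles) and R15 against Control (squares), filled where the adjusted p was under 0.05. The 3 C1q chains and 6 of the 8 receptors are filled to the right in DDC, Vtn and Cpn1 lie far to the left, and in R15 only Hc and C9 are filled.

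Of 7 soluble regulators tested, 5 were lower in DDC (31.9% of all genes) and 1 was higher. The 1 higher was Clu, named after its values were seen, which encodes clusterin and had by far the highest level of the list at 4451 ± 330, 6640 ± 192 and 3723 ± 258 FPKM over Control, DDC and R15 (0.58 ± 0.14; limma adjusted p = 0.0042). Cpn1, the catalytic chain of the carboxypeptidase that inactivates C3a and C5a, fell from 28.2 ± 2.91 FPKM among Control mice (SD, n = 4) to 4.64 ± 0.447 for DDC (SD, n = 4), with 28.4 ± 7.73 for R15 (SD, n = 3). Its log2 difference was -2.37 ± 0.15 in DDC (limma adjusted p = 9.4e-07) and 2.35 ± 0.16 from DDC to R15 (limma adjusted p = 3.6e-06). Vtn, whose product vitronectin keeps the terminal complex out of membranes, stood at 110 ± 36.2, 15.0 ± 5.23 and 177 ± 52.0 FPKM and fell by 2.79 in DDC (limma adjusted p = 1.7e-05). Serping1, the inhibitor of C1r and C1s, stood at 59.3 ± 10.1, 38.3 ± 3.39 and 60.3 ± 5.76 FPKM and fell by 0.60 (limma adjusted p = 0.0011), in the same direction as C1ra. That fall was -0.43 and not called without the 5 libraries richest in pancreatic transcripts. Of the 14 hepatocyte markers, 5 fell in DDC (31.9% of all genes) and 2 rose (33.5%), so the count says little about hepatocyte RNA. Their summed level rested largely on Alb, at 2385 to 3117 FPKM across Control and 836 to 1272 across DDC. The part of hepatocyte RNA in the falls of the soluble regulators was not tested.

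Of 4 membrane regulators tested 1 rose and 1 fell in DDC. Cd59b, the second Cd59 gene, fell from 1.72 ± 0.18 to 0.55 ± 0.0995 FPKM (-0.81 ± 0.09; limma adjusted p = 2.1e-05), as Cd59a did. Susd4 rose from 0.461 ± 0.103 to 1.31 ± 0.16 FPKM (0.66 ± 0.09; limma adjusted p = 0.00013). Cd46 stood at 0.963 ± 0.147 and 0.731 ± 0.115 FPKM, a difference of -0.18 ± 0.11 that did not pass (limma adjusted p = 0.18). Of 5 terminal genes tested, 2 fell in DDC. C8g fell from 3.00 ± 0.815 to 1.33 ± 0.187 FPKM (-0.76 ± 0.15; limma adjusted p = 0.0012). C9, the pore-forming protein, stood at 2.28 ± 1.12 FPKM in the Control libraries, 0.975 ± 0.372 in DDC and 6.05 ± 1.59 in R15, and differed by -0.70 ± 0.23 in DDC (limma adjusted p = 0.022) and 1.13 ± 0.25 in R15 against Control (limma adjusted p = 0.024). The DDC call of C9 was lost without DDC 2 (-0.67) or DDC 4 (-0.58), and without the 5 libraries richest in pancreatic transcripts (-0.49). Its R15 call was lost without Control 1 (1.07), Control 3 (1.08), R15 1 (1.09) or R15 3 (0.99). Hc, which encodes C5, stood at 0.533 ± 0.183, 1.04 ± 0.544 and 1.77 ± 0.189 FPKM, and was above Control in R15 by 0.86 ± 0.19 (limma adjusted p = 0.022). That call was lost without Control 1 (0.84) or without any one of R15 1 (0.89), R15 2 (0.89) and R15 3 (0.80). In DDC against Control, where Hc missed the threshold, it passed without DDC 2 (0.49) or DDC 4 (0.50).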

How the data were processed

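EpCAM-selected liver cells of 11 mice gave 4 Control, 4 DDC and 3 R15 libraries. FPKM values were deposited by the authors as a single table. Build mm10 is named per the submitters' processing notes. The sources used here do not name the aligner, the counter or the gene models. All 266134 nonzero FPKM values gave whole reads within 0.001 (100%), which served for depth and for 1 alternative, limma voom. This assumed a length 1 base above that listed.

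Genes reaching FPKM 1 in 3 or more libraries (15264) entered 1 limma model of log2(FPKM + 1), with all groups, a variance trend and no block (limma 3.58.1, R 4.3.3, Python 3.11.15). Such folds understate changes of low genes, and fold values are ratios of mean FPKM. The test was first checked on simulated data. Of the table's gene IDs, 42462 were in GENCODE M21. Every member is named. Of other complement genes, the 3 with the smallest p in DDC against Control per role, copies of members, and the 3 most like genes per member are named. The members and lists were chosen with earlier results of these data known. Alternatives were pseudocounts, filters, scalings, variance models, stricter calls, protein-coding genes, a block and left-out libraries.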

Additional observations from a re-analysis of the deposited data

Results flagged for a closer look

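Among 56 groups of 4 libraries, over 28 complement genes, 3 held a library far from the others of its group, where chance alone gives about 1 in 20 groups. C1rb, the near copy of C1ra, was lowest in DDC 4 at 0.146 FPKM, with the others at 0.183 to 0.186. C9 was highest in Control 2 at 3.96 FPKM, with the others at 1.56 to 1.84. Cpn1 was highest in DDC 1 at 5.31 FPKM, with the others at 4.36 to 4.52. None of the 8 members was among them. The rule looks for 1 library apart from all others of its group. It could not flag Cd55 in Control, where Control 3 and Control 4 both stood high.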

How the results depend on the processing

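Over the 8 members and 3 comparisons, 636 values under an alternative kept direction and call, 35 lost a call, 21 gained one and 4 turned sign. Those 4 were uncalled: C4b in R15 against Control without Control 1 and 3 (0.18) or Control 1 (0.10; range without single libraries -0.60 to 0.10), C4b in R15 against DDC without R15 2 (-0.07; range -0.07 to 0.36), and Cd55 in R15 against Control without Control 3 and 4 (0.13).

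The 7 members called in DDC against Control became 4 at an absolute log2 change of at least 1, and 6 to 8 without single libraries. The 4 called in R15 against Control became 2 with only the 2 groups, without Control 1 and 3, without Control 3 and 4 or at an adjusted p under 0.01, 1 at a log2 change of 1, and 0 without the 5 libraries with pancreatic transcripts, which leaves 1 Control library, assumed to vary like the others. Without single libraries they were 2 to 4 (2 without R15 1). The 4 called in R15 against DDC became 7 with array weights or without Control 1 and 3, 2 at a log2 change of 1, and 4 to 6 without single libraries.

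Of the other complement genes, the 11 lower in DDC against Control became 7 with a filter at FPKM 5 or at an adjusted p under 0.01, 5 without the 5 libraries, 3 at a log2 change of 1, and 8 to 11 without single libraries. The 13 higher were 13 to 14 without single libraries and 10 to 14 over all alternatives. The 2 higher in R15 against Control became 5 with no filter, 1 with array weights, only the 2 groups or a log2 change of 1, and 0 with a filter at FPKM 5, without Control 1 and 3, without Control 3 and 4, without the 5 libraries or at an adjusted p under 0.01. Without single libraries they were 0 to 2 (0 without Control 1, R15 1 or R15 3, and 1 without Control 3), and the 0 lower were 0 to 1 (1 without Control 2). The 11 higher in R15 against DDC became 17 with no filter, 5 with a filter at FPKM 5, 4 at a log2 change of 1 and 8 to 11 without single libraries, and the 11 lower were 11 to 14. Where no construction of the alternative shows it, the cause was not tested.

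The replicate numbers name different mice. Same-numbered libraries correlated at -0.28 to 0.30 in their deviations, 3 of 10 pairs over 0.1, and a library matched its own number best in 3 of 20 checks. These values cannot show whether equal numbers mark shared handling. With the replicate block, 6, 2 and 5 members were called in the order of comparisons above, and the 2 other complement genes higher in R15 against Control became 0. Depth was not limiting for the members, with at least 210 reads each.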

Other observations

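Another 15 complement genes lay below the filter and were tested only in the fit without one. By limma with no filter 3 were called in DDC against Control, all lower: Cd55b (-0.25, adjusted p = 0.032), C1rb (-0.19, adjusted p = 0.037) and Colec10 (-0.06, adjusted p = 0.0019). In R15 against Control 3 were called and all were higher. Masp2, a protease of the lectin pathway, stood at 0.494, 0.566, 0.332 and 0.243 FPKM in the Control libraries, 0.56, 0.252, 0.515 and 0.226 in DDC and 1.38, 0.81 and 1.40 in R15, so that each R15 library was above all others (0.64 ± 0.13 against Control, limma adjusted p = 0.032). Csmd1, a membrane regulator, was at 0.0152 to 0.0546 FPKM in Control and at 0.149, 0.151 and 0.108 in R15 (0.14 ± 0.02, limma adjusted p = 0.0022). C1s2, the near copy of C1s1, differed by 0.19 ± 0.04 (limma adjusted p = 0.041). In R15 against DDC 7 were called. With the filter 65.4% of all genes were called in DDC against Control, 9.58% in R15 against Control and 62.2% in R15 against DDC. The shares with no filter are not given here, so these counts say little about complement genes in particular. Levels were low, for Colec10 a mean of 0.0652 FPKM in Control and 0.0239 in DDC. Fcnb was at 0 in every library.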
